A study of Mus musculus with 6 samples.

Results

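The transcription factors that hold the inner cells of the mouse blastocyst in a pluripotent state were followed through 6 RNA sequencing libraries. The members were the 10 rows of the expression table whose Ensembl identifiers belong to Pou5f1, Sox2, Nanog, Esrrb, Tfcp2l1, Zfp42, Utf1, Sall4, Tbx3 and Prdm14, out of 55774 rows in all. The rule that picks these rows uses gene names and no expression value. Each library was made from a pool of 10 wild-type blastocysts, grown from 2-cell embryos of ICR mice in CZB medium with extracellular vesicles from human Fallopian tubes. In the 3 oEV-EMT pools the vesicles came from women with endometriosis, and in the 3 oEV-ctrl pools from women without it. For the women who gave the control vesicles, the sample labels give uterine fibroids and the study's methods give another gynaecological condition. All 6 pools were therefore exposed to human vesicles, and embryos in plain medium were not analysed here. The labels do not tie a pool to particular animals or donors, so p-values measure the spread between these pools, which may be in part technical.

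Pluripotency is the capacity of a cell to form every tissue of the embryo proper. Pou5f1, also called Oct4, and Sox2 bind DNA as a pair at joined octamer and SOX sites, and together with Nanog they occupy their own regulatory regions and each other's. In the blastocyst these factors mark the inner cell mass and later the epiblast, while the outer cells form the trophectoderm. Esrrb, Tfcp2l1, Zfp42, Tbx3 and Prdm14 belong to the naive state of the preimplantation embryo, and Utf1 and Sall4 are further nuclear factors of the same network.

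Regulatory sequence upstream of the members was read first, since several of them are known to be controlled by Pou5f1 and Sox2. RefSeq promoter windows on GRCm38.p6 matched 7 of the 10 members, with 10 windows in total. Sall4, Tbx3 and Prdm14 had no entry in this table. The 250 bases before the start site were searched on both strands for the octamer core TTTGCAT, for the octamer core joined to a SOX site, which contains the octamer core followed by any base and ACAA, for the orphan nuclear receptor element AAGGTCA and for the GC box GGGCGGG. The first window of the 3 members with an octamer core and of the other 2 members that stood higher in oEV-EMT are given 5′ to 3′, with the octamer or joined site in capitals.

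Nanog (chr6:122707239-122707488, plus strand): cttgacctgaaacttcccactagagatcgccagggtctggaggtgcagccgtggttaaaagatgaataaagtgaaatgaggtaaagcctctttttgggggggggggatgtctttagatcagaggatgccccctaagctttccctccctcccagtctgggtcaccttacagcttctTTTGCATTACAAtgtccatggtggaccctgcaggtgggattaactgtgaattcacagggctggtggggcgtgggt
Sox2 (chr3:34649745-34649994, plus strand): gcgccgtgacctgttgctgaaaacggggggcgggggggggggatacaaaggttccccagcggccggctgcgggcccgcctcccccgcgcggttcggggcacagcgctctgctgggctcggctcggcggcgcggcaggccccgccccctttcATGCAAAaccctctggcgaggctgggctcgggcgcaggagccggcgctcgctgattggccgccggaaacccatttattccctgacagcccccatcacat
Zfp42 (chr8:43307010-43307259, minus strand): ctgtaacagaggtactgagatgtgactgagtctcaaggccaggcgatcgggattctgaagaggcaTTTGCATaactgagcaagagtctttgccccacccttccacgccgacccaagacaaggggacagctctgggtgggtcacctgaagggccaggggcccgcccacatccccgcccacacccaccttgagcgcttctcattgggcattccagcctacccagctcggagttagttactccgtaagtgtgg
Pou5f1 (chr17:35505782-35506031, plus strand): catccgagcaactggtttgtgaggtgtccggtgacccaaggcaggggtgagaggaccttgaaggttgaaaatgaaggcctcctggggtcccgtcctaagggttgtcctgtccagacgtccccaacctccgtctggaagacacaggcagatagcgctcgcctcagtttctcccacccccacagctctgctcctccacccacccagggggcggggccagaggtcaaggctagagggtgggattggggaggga
Utf1 (chr7:139943606-139943855, plus strand): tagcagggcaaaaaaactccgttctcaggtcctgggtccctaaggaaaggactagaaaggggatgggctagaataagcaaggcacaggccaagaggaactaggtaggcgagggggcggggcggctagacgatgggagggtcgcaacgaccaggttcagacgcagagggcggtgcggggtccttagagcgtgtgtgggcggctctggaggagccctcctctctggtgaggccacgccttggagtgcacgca

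The octamer core was present before the start sites of Nanog, Sox2 and Zfp42, and it occurs in 4.13% of the 32851 RefSeq promoter windows. The Nanog window held the joined octamer and SOX site as TTTGCATTACAA, at positions -75 to -64 from the start site. The joined site, with any base at its open position and on either strand, was found in 11 windows of the genome (0.0335%). These include the overlapping second Nanog window, which holds the same site at positions -151 to -140 from its own start site. In the Sox2 window the octamer was on the opposite strand, at positions -99 to -93. The Zfp42 match was at positions -185 to -179. The windows of Pou5f1 and Utf1 held no octamer core. A GC box, which 23.4% of all windows hold, was in the printed windows of Pou5f1, Utf1, Sox2 and Zfp42, and it was absent from the second window of Pou5f1. AAGGTCA was in none of the 10 windows and in 4.08% of all windows. A match of these letters is a description of the sequence and not a measured binding site.

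The expression values are deposited per gene and library and were taken as FPKM, which are counts of fragments scaled by transcript length in kilobases and by 1000000 fragments of the library. They were compared as log2(FPKM + 1) with limma over the 11924 genes that had at least 1 FPKM in at least 3 libraries. All 10 members passed this filter. On this scale the change of a gene with low FPKM is understated. Across all tested genes the median log2 fold change, oEV-EMT minus oEV-ctrl, was 0.17, and 70.1% of genes had a fold change above 0. After median-of-ratios scaling between libraries the median of all genes was 0.01. In both scalings the fold changes of single members are to be read against that median. Read totals are not given. From the steps between low values, the fragments behind 1 FPKM in a transcript of 1 kilobase were estimated at 43.8 to 73.5 in oEV-EMT and 37.2 to 66.0 in oEV-ctrl. Because RNA came from whole blastocysts, fewer cells of a type and less RNA per cell cannot be told apart.

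Pou5f1, Nanog and Utf1 were higher in the oEV-EMT pools, with groups that did not overlap, but neither they nor any other member passed the thresholds, an adjusted p of at most 0.05 together with a log2 fold change of 1 or more in either direction. The fold of the group means was 2.03 for Pou5f1, 2.04 for Nanog and 3.70 for Utf1. Sox2, the partner of Pou5f1, had a lower mean in oEV-EMT with overlapping groups, and the other 6 members overlapped as well. By limma with Benjamini-Hochberg adjustment 0 of 10 members and 0.0% of all tested genes were past both thresholds, and the smallest adjusted p of any gene was 0.0934. The study, which used DESeq2 with these thresholds on the same libraries, did report changed genes, so the 0 belongs to limma on FPKM. At an unadjusted p of at most 0.05, 3 of the 10 members were higher and 0 lower, beside 12.8% and 2.55% of all tested genes. The oEV-EMT values were all above the oEV-ctrl values in 3 members and all below in 0, beside 18.1% and 4.34% of all tested genes. After median-of-ratios scaling the same 3 genes stood above without overlap, beside 9.82% of all genes above and 10.3% below. At an unadjusted p of at most 0.05 these 3 were again higher, beside 6.46% of all genes higher and 6.47% lower. A log2 fold change of at least 1 was seen in Nanog and Utf1, beside 2.31% of all genes, and of -1 or below in Sall4, beside 0.696%. The median log2 fold change of the members was 0.16, close to the 0.17 of all genes, and 5 members were above that median and 5 below. The differences thus lay in single members rather than in the median of the 10.

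**Figure D1:**
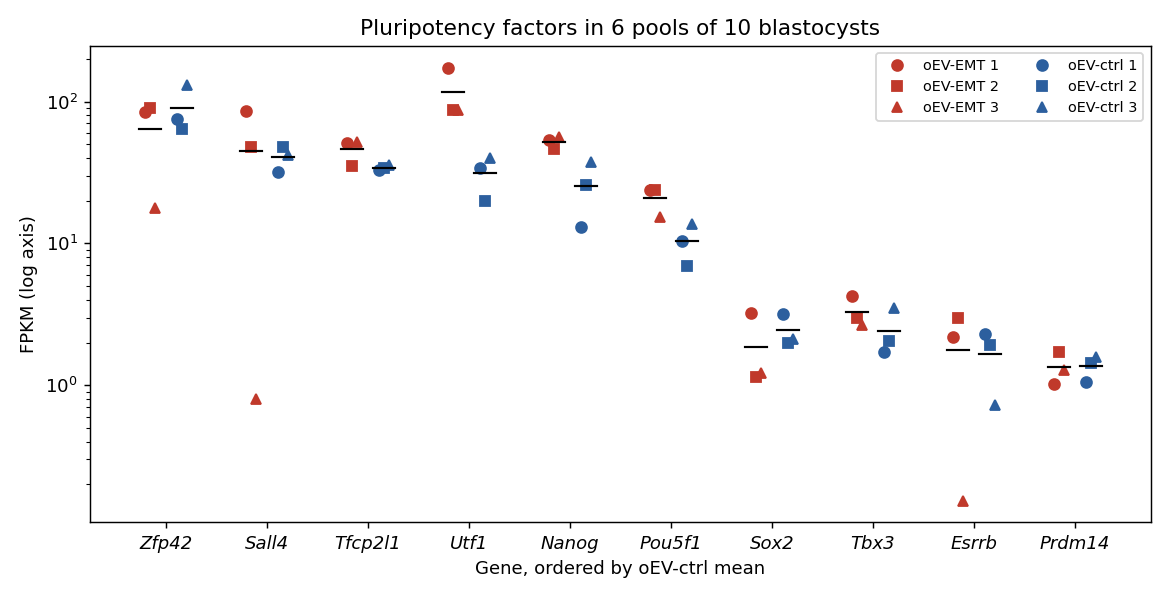
FPKM on a log axis of the 10 pluripotency factors in each pool of 10 blastocysts, with oEV-EMT pools in red and oEV-ctrl pools in blue, marker shape giving the replicate and horizontal lines the group means. Utf1, Nanog and Pou5f1 are separated between groups, and Sall4, Zfp42 and Esrrb each have their lowest value in oEV-EMT 3.

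Among the core triad, Pou5f1 encodes the POU-domain factor on which the inner cell mass depends (chr17:35506018-35510772, plus strand, GRCm38 as are all gene coordinates here). It was at 23.8, 23.9 and 15.4 FPKM in oEV-EMT 1, 2 and 3 and at 10.4, 6.94 and 13.7 FPKM in oEV-ctrl 1, 2 and 3. The lowest oEV-EMT pool was just above the highest oEV-ctrl pool. The means were 21.0 ± 4.85 and 10.4 ± 3.39 FPKM (SD, n = 3 each). On the log2 scale the difference was 0.97 (SE 0.28), with an unadjusted limma p of 0.00585 and an adjusted p of 0.175. It was 0.79 after median-of-ratios scaling and between 0.74 and 1.18 when any single library was left out. Of the 50-base stretches of Pou5f1 transcripts 10.1% are also found in other genes, mostly in Gm19553, which lies on the opposite strand and was listed at 0 in all libraries.

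Nanog encodes the homeodomain factor of the epiblast (chr6:122707489-122714633, plus strand). Its FPKM were 53.2, 46.2 and 56.1 in oEV-EMT and 13.0, 25.8 and 37.5 in oEV-ctrl. The oEV-EMT pools lay close together and the oEV-ctrl pools were spread more widely, with oEV-ctrl 1 lowest. The means were 51.8 ± 5.09 and 25.4 ± 12.3 FPKM (SD, n = 3 each). This gave a log2 fold change of 1.11 (SE 0.33), with an unadjusted limma p of 0.00731 and an adjusted p of 0.187. It was 0.92 after median-of-ratios scaling and fell to 0.71 without oEV-ctrl 1. Nanog shares 4.62% of its stretches with 55 other genes, and its pseudogene Nanog-ps1 was at no more than 0.0406 FPKM.

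Sox2 encodes the HMG-box partner of Pou5f1 (chr3:34650405-34652461, plus strand). It was at 3.24, 1.14 and 1.23 FPKM in oEV-EMT and at 3.17, 1.99 and 2.13 FPKM in oEV-ctrl. The first pool of each group was high and the groups overlapped, with oEV-EMT 2 and 3 the lowest of the 6 pools. Sox2 had a log2 fold change of -0.32 (SE 0.29), with a limma adjusted p of 0.632. Without oEV-EMT 1 the log2 fold change was -0.64, with an unadjusted limma p of 0.0173 and an adjusted p of 0.213. Sox2 shares no 50-base stretch with another gene.

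The proportions of the triad were then compared within each library. The ratio of Pou5f1 to Sox2 FPKM within a library was 7.33, 21.0 and 12.6 in oEV-EMT and 3.29, 3.48 and 6.42 in oEV-ctrl. These groups did not overlap, and the ratio is unaffected by scaling between libraries. The ratio of Nanog to Sox2 was 16.4, 40.7 and 45.7 in oEV-EMT and 4.09, 12.9 and 17.6 in oEV-ctrl, where oEV-EMT 1 fell inside the oEV-ctrl range. The ratio of Nanog to Pou5f1 overlapped, at 1.93 to 3.64 in oEV-EMT and 1.24 to 3.72 in oEV-ctrl. With 3 pools against 3, an exact permutation test of any such ratio cannot go below a p of 0.1, and these ratios are given as descriptions.

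Utf1 encodes a chromatin-associated factor and is a classical target of Pou5f1 and Sox2 (chr7:139943789-139945112, plus strand). Its FPKM were 173, 87.4 and 86.5 in oEV-EMT and 33.8, 20.0 and 40.1 in oEV-ctrl. The lowest oEV-EMT pool was more than double the highest oEV-ctrl pool, and oEV-EMT 1 was the highest of the 6. The means were 116 ± 49.9 and 31.3 ± 10.3 FPKM (SD, n = 3 each). Its log2 fold change of 1.83 (SE 0.33) was the highest of the 10 members, and it ranked 29th of the 11924 genes by limma p, with an unadjusted p of 0.000263 and an adjusted p of 0.101. The fold change was 1.64 after median-of-ratios scaling and between 1.501, without oEV-EMT 1, and 2.03 when any single library was left out. With array weights, which give less weight to the more variable libraries, the adjusted p of Utf1 was 0.0399, and 104 of all genes (0.872%) were then past both thresholds. Utf1 is also in the study's own list of changed genes, which was made from these libraries, so its rank is not independent evidence. The ratio of Utf1 to Pou5f1 FPKM was 7.29, 3.66 and 5.60 in oEV-EMT and 3.23, 2.88 and 2.93 in oEV-ctrl, and the groups did not overlap. The lowest oEV-EMT ratio, 3.66, was close to the highest oEV-ctrl ratio, 3.23, and the values are given as a description. How many other genes have a separated ratio to Pou5f1 was not counted.

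Base composition moved with the fold changes over the whole table. With the genes cut into 10 bins by transcript GC content, the median log2 fold change went from 0.05 in the lowest bin to 0.27 in the highest. Utf1 transcripts are 63.5% and Pou5f1 transcripts 57.6% GC, both in the highest bin, and Nanog transcripts 45.8% GC, in bin 4. Relative to the median of their own bin the log2 fold changes were 1.56 for Utf1, 0.70 for Pou5f1 and 0.99 for Nanog.

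**Figure D2:**
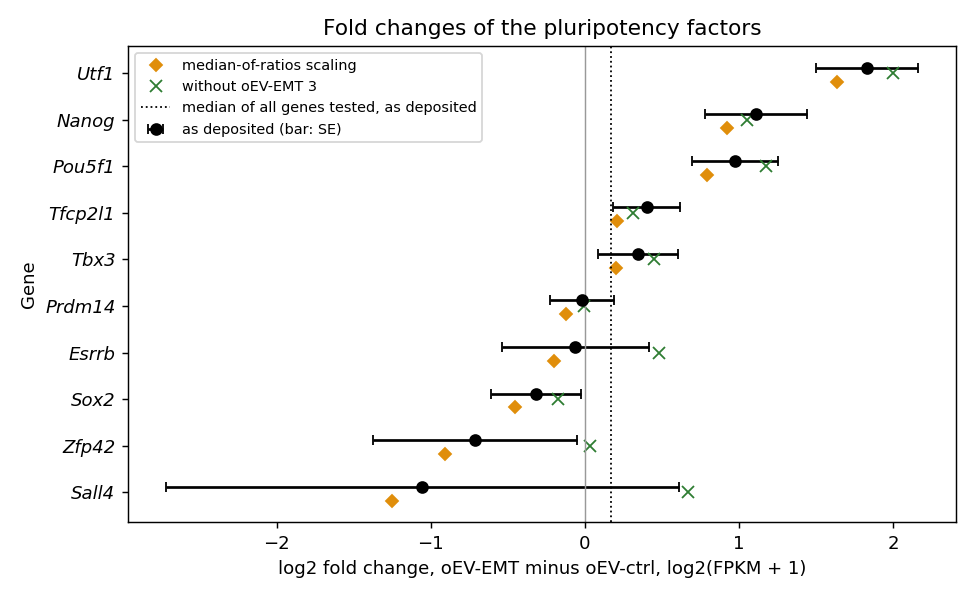
Log2 fold change of each factor, oEV-EMT minus oEV-ctrl, on log2(FPKM + 1), as deposited (black, bars are SE from limma), after median-of-ratios scaling (orange) and without oEV-EMT 3 (green), with the median of all tested genes of 0.17 dotted. Utf1, Nanog and Pou5f1 lie to the right in all 3, and Sall4 goes from -1.06 to 0.67 when oEV-EMT 3 is left out.

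The members of the naive network were less uniform. Tfcp2l1 encodes a Grainyhead-family factor that acts downstream of LIF and Stat3 (chr1:118627945-118685168, plus strand). Its FPKM were 51.4, 35.2 and 51.5 in oEV-EMT and 32.7, 34.0 and 35.7 in oEV-ctrl. The oEV-ctrl pools were tight and oEV-EMT 2 fell among them. The log2 fold change was 0.40 (SE 0.22), with a limma adjusted p of 0.403. Without oEV-EMT 2 it was 0.58, with an unadjusted limma p of 0.0324 and an adjusted p of 0.384, and after median-of-ratios scaling it was 0.21.

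Tbx3 encodes a T-box repressor (chr5:119670669-119684724, plus strand). It was at 4.23, 2.99 and 2.64 FPKM in oEV-EMT and at 1.72, 2.05 and 3.50 FPKM in oEV-ctrl. The pools overlapped through oEV-ctrl 3, and the log2 fold change was 0.34 (SE 0.26, limma adjusted p = 0.553). Prdm14, a PR-domain regulator of the naive state and of germ cell formation, was the lowest of the 10 by mean FPKM in both groups (chr1:13113457-13127163, minus strand). Its FPKM were 1.02, 1.70 and 1.28 in oEV-EMT and 1.05, 1.44 and 1.59 in oEV-ctrl. Its log2 fold change was -0.02 (SE 0.21, limma adjusted p = 0.974), and its sign turned in 5 of the 15 alternative settings.

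Zfp42, also called Rex1, is a zinc finger gene used as a marker of naive cells (chr8:43295063-43306980, minus strand). Its FPKM were 84.3, 90.3 and 17.7 in oEV-EMT and 74.7, 63.7 and 130 in oEV-ctrl. Only oEV-EMT 3 was below the oEV-ctrl range. Its log2 fold change was -0.71 (SE 0.66, limma adjusted p = 0.647) and became 0.03 without oEV-EMT 3. Zfp42 shares 8.52% of its 50-base stretches with the pseudogene Zfp42-ps1, which was at 51.4 to 76.4 FPKM in oEV-EMT and 54.0 to 63.5 FPKM in oEV-ctrl, so reads may have been divided between the pair. The sum of the pair was 161, 154 and 69.1 in oEV-EMT and 134, 118 and 194 in oEV-ctrl, and oEV-EMT 3 remained the lowest pool.

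Esrrb encodes an orphan nuclear receptor (chr12:86361117-86521628, plus strand). It was at 2.20, 2.97 and 0.154 FPKM in oEV-EMT and at 2.30, 1.94 and 0.720 FPKM in oEV-ctrl. The third pool of each group was lowest. The log2 fold change was -0.06 (SE 0.48, limma adjusted p = 0.962), and 0.48 without oEV-EMT 3.

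Sall4 encodes a zinc finger factor of the inner cell mass (chr2:168748332-168767943, minus strand). Its FPKM were 86.1, 48.1 and 0.804 in oEV-EMT and 31.8, 47.8 and 42.3 in oEV-ctrl. oEV-EMT 3 was 39.5-fold below the lowest of the other 5 pools, while oEV-EMT 1 and 2 were above all oEV-ctrl pools. Over all 6 pools the log2 fold change was -1.06 (SE 1.67, limma adjusted p = 0.799). Without oEV-EMT 3 it was 0.67, with an unadjusted limma p of 0.0505 and an adjusted p of 0.311. Had all Sall4 fragments come from its longest transcript, the value in oEV-EMT 3 would correspond to about 205 fragments. Sall4 shares 7.64% of its stretches with the antisense gene Gm14261, which was at no more than 0.199 FPKM.

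oEV-EMT 3 was the lowest pool for Sall4, Zfp42 and Esrrb but the highest for Nanog and Tfcp2l1. Its estimated depth of 50.4 fragments per FPKM and kilobase was inside the range of the other 5 libraries. Of 6047 genes with at least 5 FPKM in every other library, 3 were at least 10-fold lower in oEV-EMT 3, namely Sall4, Cgn and Rnf44. The same count, a rule chosen after the values were seen, was 0 to 4 in each of the other libraries. Low values of this kind were thus not particular to oEV-EMT 3 in number. The 10 embryos of this pool and its library cannot be told apart as the place of the low values.

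**Figure D3:**
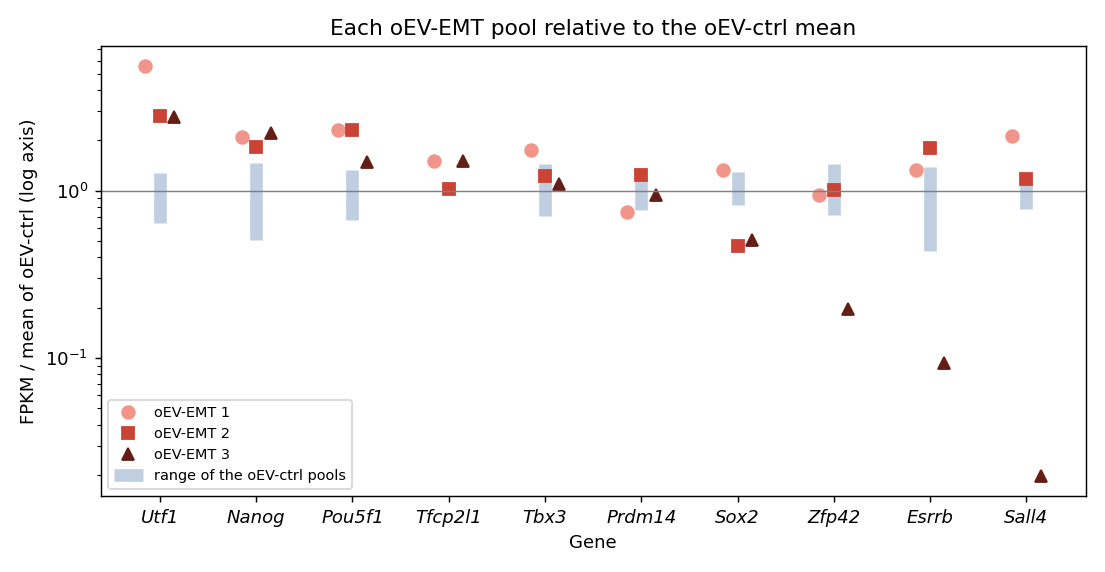
FPKM of each oEV-EMT pool divided by the mean of the 3 oEV-ctrl pools, on a log axis, with blue bars spanning the oEV-ctrl pools. All 3 oEV-EMT pools are above the bar for Utf1, Nanog and Pou5f1, and oEV-EMT 3 falls far below it for Sall4, with 0.804 FPKM against a mean of 40.6.

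The order of the members by mean FPKM differed between groups in the places of Utf1, Sall4, Nanog, Zfp42, Tfcp2l1, Sox2 and Tbx3. In oEV-ctrl the order was Zfp42, Sall4, Tfcp2l1, Utf1, Nanog, Pou5f1, Sox2, Tbx3, Esrrb and Prdm14. In oEV-EMT it was Utf1, Zfp42, Nanog, Tfcp2l1, Sall4, Pou5f1, Tbx3, Sox2, Esrrb and Prdm14. Most neighbours in these orders had overlapping ranges. The gap below Pou5f1 was free of overlap in both groups, and in oEV-ctrl so was the gap between Zfp42 and Sall4. Ratios to Pou5f1 and Nanog were also read within each library, as descriptions. Both denominators stood higher in oEV-EMT, which lowers such ratios, while Zfp42 itself overlapped between groups. How many other genes have separated ratios of this kind was not counted. The ratios of Sall4 to Pou5f1 and of Tfcp2l1 to Nanog overlapped. The ratio of Zfp42 to Pou5f1 FPKM was 3.54, 3.78 and 1.15 in oEV-EMT and 7.16, 9.19 and 9.49 in oEV-ctrl. The groups of this ratio did not overlap, with or without oEV-EMT 3. The ratio of Zfp42 to Nanog was likewise lower, at 0.315 to 1.96 in oEV-EMT and 2.47 to 5.76 in oEV-ctrl.

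The genes with the profile most like that of each triad member were sought by the root mean square distance of centred log2(FPKM + 1) over the 6 libraries among 11643 annotated genes. Those nearest to Pou5f1 were Crip2, Pfn1 and Galt, at distances of 0.132 to 0.138. Nanog was followed by Ifitm2, Snord8 and Gnpda1, at 0.147 to 0.161, and Sox2 by Bod1l, Ikzf5 and Gm17212, at 0.0646 to 0.0798. No other member was among these genes, and the distance between Pou5f1 and Sox2 was 0.758, larger than that between Pou5f1 and Nanog, 0.518.

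Among genes listed here as targets of Pou5f1 and Sox2, 19 of 20 were tested. At an unadjusted p of at most 0.05 by limma 7 were higher and 1 was lower. The list median log2 fold change was 0.55, against 0.17 for all genes. Whether Pou5f1 or Sox2 acts on any of them in these embryos was not tested. Of all genes 12.8% were higher and 2.55% lower at this p. After median-of-ratios scaling 5 were higher and 1 lower, beside 6.46% and 6.47% of all genes. Gdf3, a TGF-beta family ligand of the epiblast, was at 30.02, 30.8 and 35.6 FPKM in oEV-EMT and 10.3, 16.1 and 17.7 FPKM in oEV-ctrl. Its groups did not overlap, and the log2 fold change was 1.10 (SE 0.24, limma adjusted p = 0.118). Trp53, the gene of p53, was at 49.98, 25.9 and 22.7 FPKM in oEV-EMT and 10.3, 10.9 and 17.6 FPKM in oEV-ctrl, and its log2 fold change was 1.23 (SE 0.32, limma adjusted p = 0.164). Trp53, like Tle4 among the partners, is in the study's own list of changed genes. It is 1 of the 7 higher genes here and 1 of the 5 after scaling. The study also reported Trp53 as significantly higher in oEV-EMT-treated embryos by real-time RT-PCR. Dppa4, a nuclear protein of pluripotent cells, had a log2 fold change of 0.82 (limma adjusted p = 0.164). Dppa5a, which encodes an RNA-binding protein, was the exception, at 9758, 11900 and 11864 FPKM in oEV-EMT and 20192, 17187 and 15016 FPKM in oEV-ctrl. All its oEV-EMT pools were lower, with a log2 fold change of -0.64 (SE 0.19, limma adjusted p = 0.175).

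Of 26 partners and cofactors of the core factors, all tested, 5 were higher and 1 lower at the same unadjusted limma p, and the list median was 0.14, near the 12.8% and 2.55% of all genes and their median. After median-of-ratios scaling 2 were higher and 3 lower, beside 6.46% and 6.47% of all genes, so the split of this list depended on the scaling. Sox15, a SOX factor that can also pair with Pou5f1, had a log2 fold change of 0.82 (limma adjusted p = 0.240), and Cbfa2t2, a corepressor that binds Prdm14, one of 0.58 (limma adjusted p = 0.254). The deacetylase gene Hdac1 had one of 0.82 (limma adjusted p = 0.259). After median-of-ratios scaling the 2 higher genes were Cbfa2t2 and Hdac1, while Sox15 had an unadjusted limma p of 0.0515. The corepressor gene Tle4 was at 7.93, 7.72 and 4.30 FPKM in oEV-EMT and 15.3, 16.6 and 16.6 FPKM in oEV-ctrl. The oEV-EMT pools were all lower, and the log2 fold change was -1.20 (SE 0.25, limma adjusted p = 0.118).

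Of 18 genes of the signals upstream of the network 13 were tested, with 3 higher and 0 lower by unadjusted limma p and a list median of 0.37, beside 12.8% and 2.55% of all genes. After median-of-ratios scaling 2 were higher, Bmp4 and Id1, beside 6.46% of all genes. The 3 that were higher without that scaling were the only BMP pathway genes in this list. They were the ligand Bmp4 (log2 fold change 0.68, limma adjusted p = 0.221) and the inhibitors of differentiation Id1 (0.98, limma adjusted p = 0.174) and Id3 (0.68, limma adjusted p = 0.232). After that scaling Id3 had an unadjusted limma p of 0.0518. Of 11 genes of primed pluripotency, the state after implantation, 9 stayed below 1 FPKM in all libraries and the 2 tested ones were neither higher nor lower at an unadjusted limma p of at most 0.05. Dnmt3b, a DNA methyltransferase gene and one of these 2, was at 47.2, 33.8 and 8.99 FPKM in oEV-EMT and 23.5, 27.6 and 31.6 FPKM in oEV-ctrl, again with oEV-EMT 3 lowest.

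**Figure D4:**
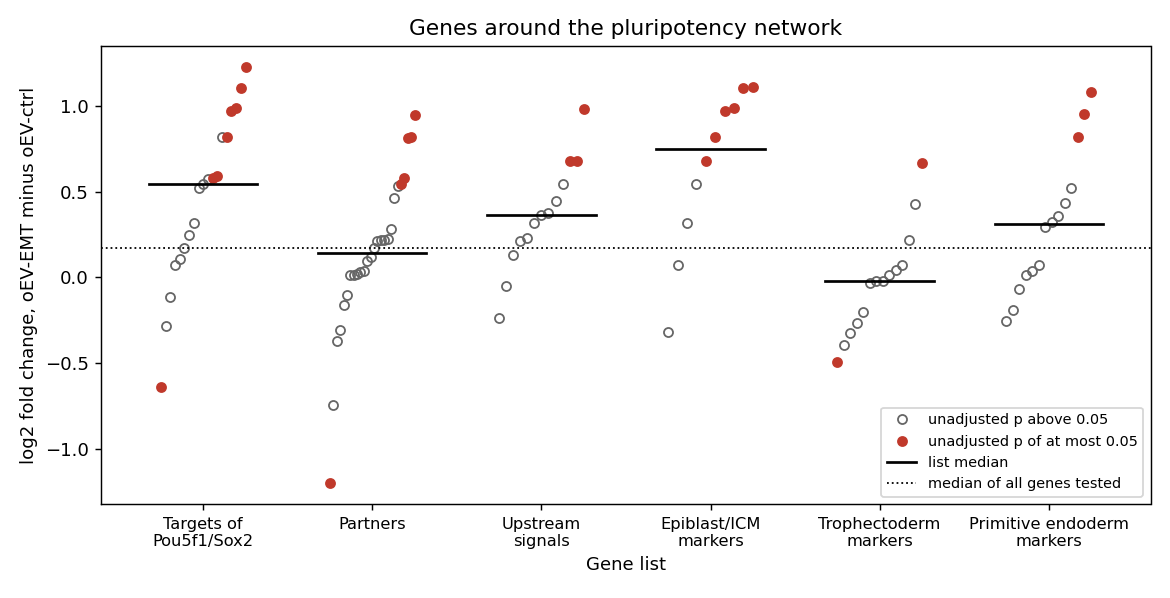
Log2 fold change, oEV-EMT minus oEV-ctrl, of each tested gene in 6 lists around the pluripotency factors, with filled red points for an unadjusted limma p of at most 0.05, bars for list medians and the dotted line for the median of all genes, 0.17. Medians run from -0.02 for trophectoderm markers to 0.75 for epiblast and inner cell mass markers, a list that holds Pou5f1, Sox2 and Nanog. The other tested genes of that list are also in the lists of targets, partners or upstream signals.

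Markers of the cell types of the blastocyst were read beside the factors, at an unadjusted limma p of at most 0.05, at which 12.8% of all genes were higher and 2.55% lower. Of the epiblast and inner cell mass markers, 6 of 10 tested were higher and 0 lower, Pou5f1 and Nanog being among the 6, and 5 were higher after median-of-ratios scaling, beside 6.46% of all genes. Apart from Pou5f1, Sox2 and Nanog, every tested gene of this list is also in the lists of targets, partners or upstream signals above. The list thus adds no tested gene beyond those lists and the members. Trophectoderm markers had a median log2 fold change of -0.02, with Elf5 higher and Tspan8 lower of 14 tested, and 0 higher and 2 lower after that scaling. Their summed FPKM were 5768 to 7790 in oEV-EMT and 7281 to 7608 in oEV-ctrl. Among primitive endoderm markers Gata4, Amn and Sox17 were higher of 14 tested, of which Gata4 remained after that scaling, and the summed FPKM were 209 to 390 in oEV-EMT and 252 to 324 in oEV-ctrl. In both lists a few highly expressed genes made up most of the sum, so the sums say little of the other markers. The part of cell type shares in the levels of Pou5f1, Nanog and Utf1 was not tested. Cumulus or granulosa markers summed to at most 0.344 FPKM in any library, with Amh, Cyp19a1, Fshr, Ptx3 and Inhba at 0. Of the 6 oviduct epithelium markers, Epcam, which the embryo also expresses, was tested, Foxj1 was at 0 and the rest stayed below 1 FPKM. Of 10 oocyte markers 3 were tested and Zp3 was higher, at 1.08 to 1.61 FPKM in oEV-EMT and 0.120 to 0.792 FPKM in oEV-ctrl, but after that scaling it no longer passed the filter. Of 8 sperm and germ line markers 4 were tested and 0 were higher or lower by unadjusted limma p.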

How the data were processed

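RNA from 3 oEV-EMT and 3 oEV-ctrl pools of blastocysts was sequenced by the authors after oligo (dT) selection, and transcripts were assembled with StringTie. The submitters' processing notes name mm10, and the aligner is not given in the sources used here. The authors deposited 1 value per gene and library. The methods call these values TPM, but they sum to more than 1000000 and differ between libraries, so the deposited values were analysed as FPKM, per fragments of each library. Of 55774 rows, 55487 have Ensembl identifiers and 55141 matched GENCODE M21. limma 3.58.1 (R 4.3.3, trended and robust) was run on log2(FPKM + 1) of the whole table, with Benjamini-Hochberg adjustment over 11924 genes and thresholds from the study's methods. The design assumed that the table could hold counts, and limma was its provision for FPKM. The procedure was tested on simulated data.

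The members and gene lists were chosen with earlier results of these data known. All 10 members were named. Other genes were named by a rule, up to 3 per list and direction with the smallest unadjusted p of at most 0.05, the 3 nearest profiles of Pou5f1, Sox2 and Nanog, and genes that share sequence or position. Cgn, Rnf44 and Dnmt3b were named after their values were seen, as was the GC comparison (97.5% of tested genes had a GC value, from the longest GENCODE transcript). In the estimate of depth, 47.1% to 67.4% of low values came within 0.15 of a whole fragment, where 30% would if spread evenly, so it is rough. Alternatives covered scaling, filter, pseudocount, variance model, array weights, a replicate block and the omission of single libraries. Python 3.11.15 with matplotlib 3.10.9 made the figures.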

Additional observations from a re-analysis of the deposited data

How the results depend on the processing

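Under each of 15 alternatives Pou5f1, Nanog and Utf1 kept an unadjusted limma p of at most 0.05. They also stood above without overlap under each rescaling between libraries. The other alternatives could not make separated groups overlap, since they keep the order of the values or only leave out a library. The median log2 fold change of the members was 0.69 with a filter of at least 5 FPKM, which drops Sox2, Esrrb, Tbx3 and Prdm14, and 0.13 to 0.47 when a library was left out. Utf1 alone passed both thresholds with array weights and with the replicate block (limma adjusted p of 0.0399 and of 0.0334), so the count of members became 1, and the count of all genes 104 and 21, while leaving out a library gave 0 to 16. The deviations of same-numbered pools had correlations of 0.12, -0.04 and 0.04, and not every pool correlated best with its own number. With so few pools per group these values cannot show or exclude shared samples, so they give no ground for the replicate block. Members without overlap numbered 3 to 5 when a library was left out, and both the 5 and the 16 were without oEV-ctrl 3. The log2 fold change of Esrrb turned to 0.0207 with sums of 1000000 per library and 0.382 with array weights, and ran from -0.41 to 0.48 when a library was left out (above 0 without oEV-EMT 3, oEV-ctrl 1 or oEV-ctrl 2). That of Prdm14 turned to 0.0250 and 0.0653 in the same settings, and ran from -0.129 to 0.0808 when a library was left out (above 0 without oEV-EMT 1, oEV-ctrl 2 or oEV-ctrl 3). Leaving out a library gave -1.11 to 0.0323 for Zfp42 and -2.13 to 0.671 for Sall4, each above 0 without oEV-EMT 3 alone. Beyond the construction of each alternative, the cause was not tested. Counting error could not be set for FPKM without read totals, and it weighs most on Sox2, Esrrb, Tbx3 and Prdm14, the members with the lowest FPKM.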
